A study of Mus musculus with 8 samples.

Results

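The lysosomal genes described here are 33 genes for acid hydrolases, proteins of the lysosomal membrane, subunits of the lysosomal proton pump and the transcription factor Tfeb, chosen by name. They were followed in 8 mouse embryos of the C57BL/6 background at E6.75, about the time gastrulation begins, 4 labelled Tet1/2/3 TKO and 4 labelled Control. TKO stands for a triple knockout of Tet1, Tet2 and Tet3, the dioxygenases that oxidise methylated cytosine in DNA. Each library was made from 1 whole embryo, and the labels do not give the targeted exons of the Tet genes. The labels of the Control embryos include the letters WT but do not spell out their genotype further. Of the 33 genes, 32 were found among the 21182 gene symbols of the deposited table by their own symbol, and Tfeb was found by its older symbol Tcfeb. Values are the authors' RPKM, in which the reads of a gene are divided by its length in kilobases and by the mapped reads of the library in units of 1000000.

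Lysosomes break down proteins, lipids and glycans taken up by endocytosis or delivered by autophagy. Their hydrolases work in an acid lumen kept by the proton-pumping vacuolar ATPase, within a membrane coated by the glycoproteins Lamp1 and Lamp2. Many of these genes are switched on together by Tfeb and its relatives, which bind an E-box with the core CACGTG, known within a longer motif as the CLEAR element. In the mouse embryo around gastrulation, the visceral endoderm, an absorptive outer layer, is known for its large apical vacuoles and its many lysosomes.

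The promoters of 5 of the genes are printed to show the E-box core where the data hold it, with 1 highly expressed gene that lacks it. Each run is the stretch of 120 bases just before the annotated start, 5′ to 3′ on the gene's own strand, from RefSeq on build GRCm38.p6, with each CACGTG in capitals. Lamp1 lies at chr8:13159041-13159160 on the plus strand, Mcoln1 at chr8:3500399-3500518 on the plus strand, Ctsd at chr7:142387828-142387947 on the minus strand, Glb1 at chr9:114400958-114401077 on the plus strand, and Cd63 at chr10:128909225-128909344 on the plus strand.
Lamp1: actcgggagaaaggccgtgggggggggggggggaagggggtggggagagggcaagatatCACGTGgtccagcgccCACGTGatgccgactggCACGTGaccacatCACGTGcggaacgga
Mcoln1: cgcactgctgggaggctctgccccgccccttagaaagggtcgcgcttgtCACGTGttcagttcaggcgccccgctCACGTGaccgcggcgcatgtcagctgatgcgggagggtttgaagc
Ctsd: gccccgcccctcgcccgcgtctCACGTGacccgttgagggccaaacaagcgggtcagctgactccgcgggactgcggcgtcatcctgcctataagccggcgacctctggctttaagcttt
Glb1: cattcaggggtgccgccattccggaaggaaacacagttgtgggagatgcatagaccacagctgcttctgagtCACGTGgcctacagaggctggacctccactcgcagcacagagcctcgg
Cd63: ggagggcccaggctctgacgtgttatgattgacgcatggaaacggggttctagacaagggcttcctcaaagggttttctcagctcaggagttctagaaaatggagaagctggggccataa

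Lamp1 carried 4 copies of the core in these 120 bases, Mcoln1 carried 2, Ctsd and Glb1 carried 1 each, and Cd63 carried 0. Over windows of 300 bases, from 250 before to 50 after the start, a window was found for 27 of the 33 genes. The core CACGTG, which reads the same on both strands, was in 9 of these 27 genes (33.3%), against 7.15% of all 32851 RefSeq windows. The longer GTCACGTG, sought on both strands and always overlapping the core, was in 8 of 27 (29.6%), namely Atp6v0d1, Ctsa, Ctsd, Gla, Glb1, Lamp1, Lgmn and Mcoln1, against 2.25% of all windows. Ctsl held the core without the longer form. Asah1, Atp6v1h, Ctsb, Ctsh, Laptm4b and Npc1 had no entry in the table used here. The 27 genes had 32 windows, and a gene counted if any of its windows held the motif. Shares of genes are thus set beside shares of single windows, which are not the same unit. A match describes letters in a window and not a bound site.

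Estimated read totals, in units of 1000000 reads, were 9.9 to 18.96 in TKO-labelled embryos and 12.38 to 16.42 in Control embryos, and 3227 to 4942 genes against 2186 to 4466 genes were listed at 0. Tet1 went against a loss of its transcript, at 15.3, 9.50, 9.21 and 11.7 RPKM in TKO-labelled embryos 1 to 4 and 5.04, 5.25, 4.93 and 5.76 RPKM in Control embryos 1 to 4. Tet3 averaged 1.38 ± 0.25 RPKM in TKO-labelled embryos and 1.85 ± 0.16 RPKM in Control embryos, and Tet2 averaged 0.784 ± 0.172 against 0.725 ± 0.189 RPKM (SD, n = 4 each). A value over the whole gene cannot check a deleted exon, so the embryos are called TKO-labelled. Marker lists of the embryonic tissues were present in every embryo, but their sums were uneven. TKO-labelled embryo 3 and Control embryo 1 had the highest visceral endoderm sums, and parietal endoderm markers were high in TKO-labelled embryos 2 to 4. Decidua markers, from maternal tissue, varied in both groups. No litter or batch is given in the labels, so a litter or batch that differs between the groups cannot be told apart from the TKO label. The p-values set the difference between groups against the spread among embryos within the groups.

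The most abundant lysosomal transcripts per length were those of Ctsl, an endopeptidase of the cathepsin family, and Cd63, a tetraspanin of late endosomes and secreted vesicles. Ctsl stood at 329, 471, 596 and 454 RPKM in TKO-labelled embryos 1 to 4, against 615, 406, 220.2 and 251 RPKM in Control embryos 1 to 4. Cd63 stood at 357, 429, 569 and 374 RPKM in the TKO-labelled embryos, against 558, 334, 234 and 313 RPKM in Control. The groups overlapped for both genes, with Control embryo 1 and TKO-labelled embryo 3 at the top and Control embryo 3 at the bottom. Over all 8 embryos their means of 417.9 and 396.0 RPKM lay at the 98.1st and the 98.0th percentile of the 10451 genes tested. Ctsl and Cd63 could not be told apart in level, since Ctsl was the higher one in 5 of 8 embryos.

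Cd63 was above Lamp1 (mean 154.1 RPKM over the 8 embryos) in 8 of 8 embryos, with separate ranges in both groups, while Lamp1 and Ctsz (151.7 RPKM), a carboxypeptidase, overlapped. Further down the order, neighbours overlapped in at least 1 group as far as Scarb2, the receptor that carries glucocerebrosidase to lysosomes, at 3.48 RPKM. Below it, Ctss, a cathepsin best known from antigen-presenting cells, was separate from Scarb2. Ctss was listed at 0.149, 0.0520, 0.232 and 0.251 RPKM in TKO-labelled embryos and at 0.223, 0, 0.355 and 0.667 RPKM in Control embryos, with an exact two-sided permutation p of 0.457. It was the 1 lysosomal gene below the filter used for testing, which kept a gene if 4 or more embryos reached 1 RPKM. The leukocyte marker Ptprc was at most 0.135 RPKM in TKO-labelled embryos and 0.246 RPKM in Control embryos. The 12 macrophage and leukocyte markers summed to 1.12 to 7.28 RPKM against 1.60 to 9.39 RPKM.

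**Figure D1:**
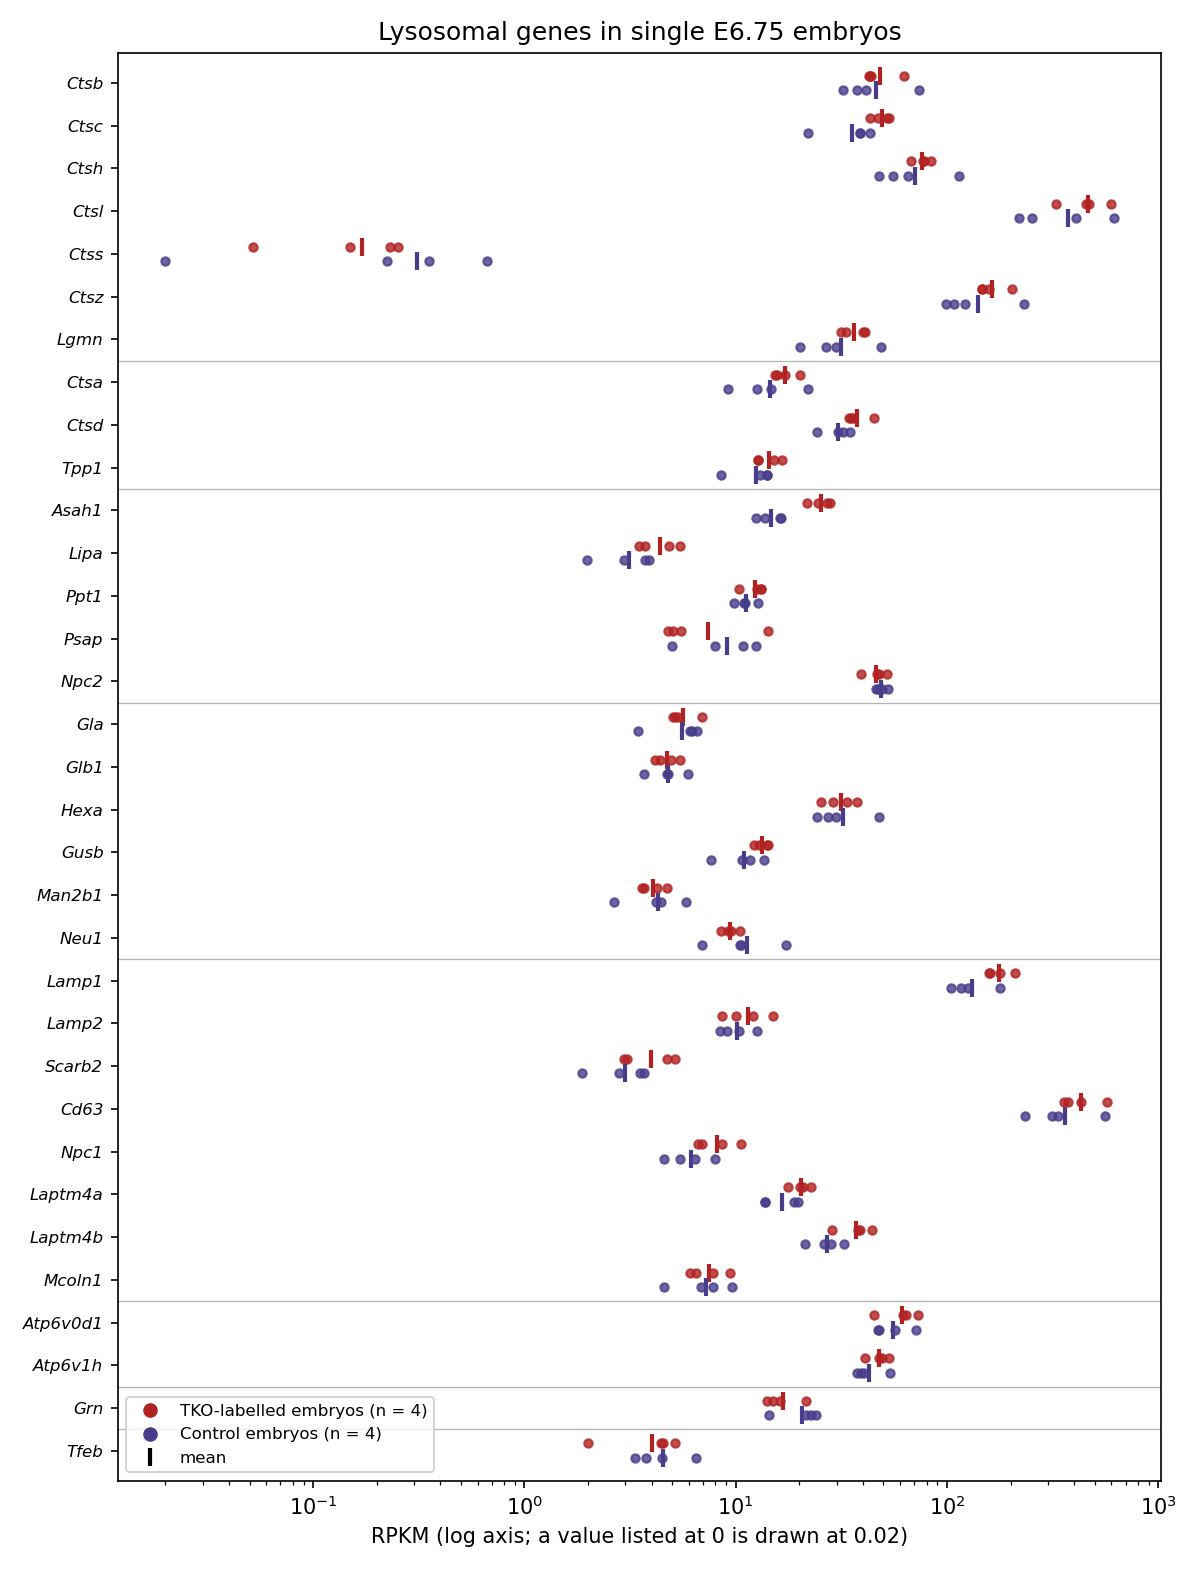
RPKM of the 33 lysosomal genes on a log axis, 1 point per embryo, TKO-labelled embryos above Control embryos for each gene and vertical ticks at the group means (n = 4 each). Ctsl and Cd63 lie at the top with means of 417.9 and 396.0 RPKM over all embryos, Ctss lies at the bottom, and the groups are separate for Asah1 alone.

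The comparison of TKO-labelled with Control embryos asks how transcripts differ where the 3 Tet genes are labelled as lost. No lysosomal gene passed it: limma on log2(RPKM + 1), with p-values adjusted over all 10451 genes by Benjamini-Hochberg and a threshold of 0.05, called 0 of the 32 lysosomal genes tested and 1 gene in all (0.00957%). At an unadjusted p under 0.05, 5 of 32 were higher in TKO-labelled embryos (15.6%), against 13.9% of all genes tested. None was lower (0 of 32) against 3.6% of all genes. The share of higher genes is close to that of the background. The median log2 difference was 0.20 over the lysosomal genes and 0.09 over all genes, and 24 of 32 differences were positive (75.0%) against 66.5%. Differences on this scale understate the change of genes near 1 RPKM.

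Median-ratio scaling and quantile normalization centre the differences of all genes near 0 by construction. With median-ratio scaling, 8.05% of all genes were higher and 6.42% lower at an unadjusted p under 0.05, and with quantile normalization 7.46% and 7.54%. The lysosomal genes then had 3 and 2 higher members, and median differences of 0.11 and 0.09 against 0.02 and 0.00 over all genes. Positive differences were 22 and 20 of 32, and quantile normalization also gave 1 lower member.

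**Figure D2:**
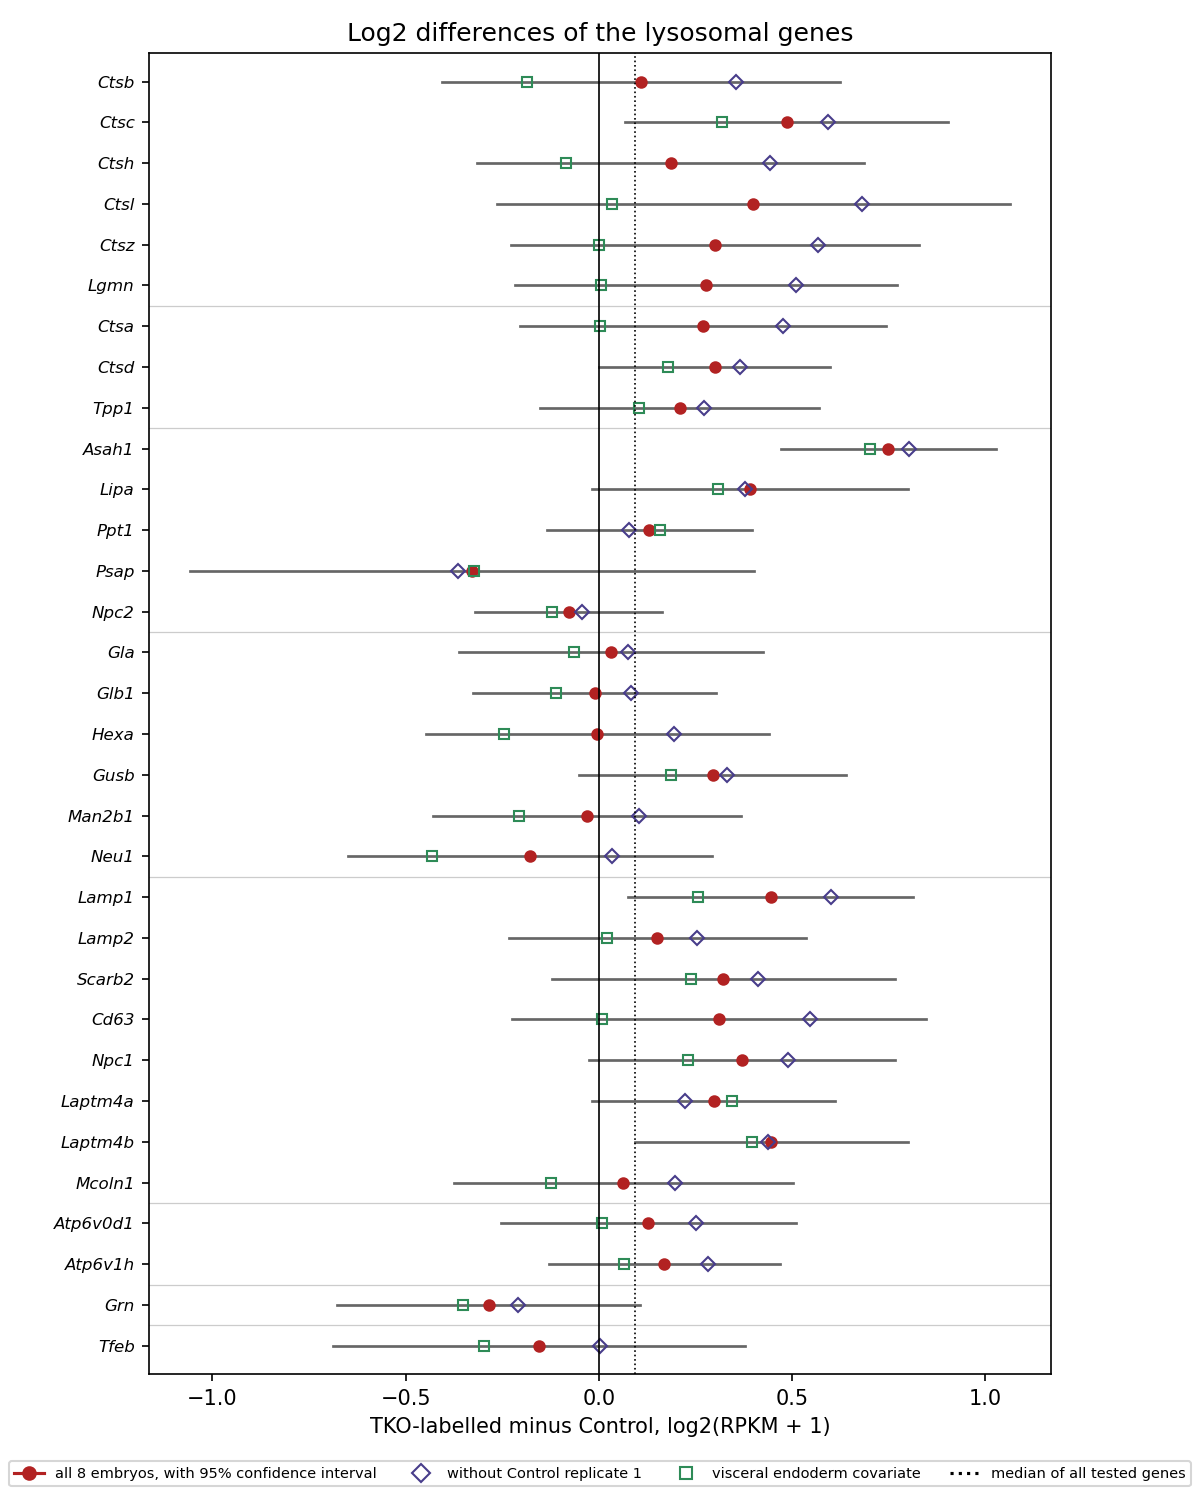
Log2 difference, TKO-labelled minus Control, on the log2(RPKM + 1) scale for the 32 lysosomal genes tested, with 95% confidence intervals from limma (filled points), the same without Control embryo 1 (diamonds) and with visceral endoderm markers as a covariate (squares). The dotted line marks the median of all genes tested, 0.09, and the interval of Asah1, 0.47 to 1.03, lies farthest from 0.

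Asah1 encodes acid ceramidase, which splits ceramide into sphingosine and a fatty acid. It was 24.6, 21.8, 27.9 and 27.1 RPKM in TKO-labelled embryos 1 to 4, against 16.4, 12.4, 13.7 and 16.2 RPKM in Control embryos 1 to 4. All 4 TKO-labelled embryos were above all 4 Control embryos. The means were 25.3 ± 2.76 and 14.7 ± 1.96 RPKM (SD, n = 4 each), a log2 difference of 0.75 with a 95% interval of 0.47 to 1.03 and a limma adjusted p of 0.112. The exact two-sided permutation p was 0.0286, the smallest that 4 against 4 embryos can give. It was the 1 gene of the 32 with no overlap and a higher level, where 7.55% of all genes had that pattern, and 0 of 32 had no overlap and a lower level, against 1.86% of all genes. Its difference stayed between 0.62 and 0.82 over the 19 alternative settings, and its limma adjusted p ranged over 0.0642 to 0.320.

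The other 4 hydrolases and carriers of lipids showed smaller or negative differences. Lipa, the acid lipase for cholesteryl esters, averaged 4.38 ± 0.931 RPKM in TKO-labelled embryos and 3.13 ± 0.878 RPKM in Control embryos (SD, n = 4 each), a log2 difference of 0.39 with an interval of -0.02 to 0.80. Ppt1, which removes palmitate from proteins, differed by 0.13, with an interval of -0.14 to 0.40. Npc2, which hands cholesterol to Npc1, was among the steadiest members: it ranged over 39.0 to 52.0 RPKM in TKO-labelled embryos and 45.9 to 52.3 RPKM in Control embryos, a difference of -0.08 with an interval of -0.32 to 0.16. Psap, the precursor of the saposins that present sphingolipids to their hydrolases, is described with the decidua markers.

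Among the cysteine proteases, all 6 tested had positive differences with all 8 embryos and no covariate, apart from Ctsb with quantile normalization (-0.01), and the median was 0.29. Ctsb also turned negative with either endoderm covariate and without TKO-labelled embryo 3 or Control embryo 3, and Ctsh with the visceral endoderm covariate. Of the 6, 1 had an unadjusted p under 0.05, against 13.9% of all genes in the higher direction. It was Ctsc, a dipeptidyl peptidase known for activating granule serine proteases. Ctsc was 47.2, 43.3, 52.2 and 53.2 RPKM in TKO-labelled embryos, against 43.4, 38.6, 22.0 and 38.6 RPKM in Control embryos. The groups overlapped by 1 embryo on each side, TKO-labelled embryo 2 against Control embryo 1, and Control embryo 3 was far below the rest. The log2 difference of Ctsc was 0.49, with an interval of 0.07 to 0.90, a limma adjusted p of 0.233 and an exact two-sided permutation p of 0.0571.

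For the other 5, Control embryo 1 was the highest of all 8 embryos and Control embryo 3 the lowest. Their log2 differences were 0.40 for Ctsl (interval -0.26 to 1.06), 0.30 for Ctsz (-0.23 to 0.83), 0.28 for the asparaginyl endopeptidase Lgmn (-0.22 to 0.77), 0.19 for the aminopeptidase Ctsh (-0.32 to 0.69) and 0.11 for Ctsb (-0.41 to 0.62). Ctsb encodes a peptidase that acts as both an endopeptidase and a carboxypeptidase. Ctsl has close relatives in the placental cathepsin genes, and how the authors' counting treated reads shared by such relatives is not known here.

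The 3 other proteases also had positive differences, with a median of 0.27. Ctsd, the main aspartic protease of lysosomes, was 35.9, 35.0, 45.0 and 34.2 RPKM in TKO-labelled embryos, against 34.6, 32.3, 24.3 and 30.4 RPKM in Control embryos. TKO-labelled embryos 1 to 3 were above every Control embryo. The difference of 0.30 had an interval of 0.00 to 0.60, a limma adjusted p of 0.286 and an exact two-sided permutation p of 0.0571. Ctsa, a carboxypeptidase that also protects the Glb1 and Neu1 enzymes, differed by 0.27 (interval -0.21 to 0.74). Tpp1, a tripeptidyl peptidase, differed by 0.21 (-0.15 to 0.57).

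The 6 glycosidases, which strip sugars from glycoproteins, glycolipids and glycosaminoglycans, centred on no difference, with a median of -0.01 and 2 positive against 4 negative values. Gusb, beta-glucuronidase, had the largest positive value at 0.29 (interval -0.05 to 0.64). The alpha-galactosidase Gla differed by 0.03, and by -0.04 and -0.05 with median-ratio scaling and quantile normalization. Glb1, beta-galactosidase, differed by -0.01, Hexa, the alpha subunit of beta-hexosaminidase, by -0.00, and Man2b1, an alpha-mannosidase, by -0.03. These 4 genes had intervals that reached at most 0.44 upward and -0.45 downward. Neu1, the lysosomal sialidase, averaged 9.43 ± 0.838 RPKM in TKO-labelled embryos and 11.3 ± 4.36 RPKM in Control embryos (SD, n = 4 each), where Control embryo 1 alone reached 17.3 RPKM.

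All 8 membrane proteins had positive differences with all 8 embryos and no covariate, apart from Mcoln1 under both other scalings, and the median was 0.32. Lamp2, Scarb2 and Cd63 turned negative with the parietal endoderm covariate, and Mcoln1 with the visceral endoderm and decidua covariates and without TKO-labelled embryo 1 or Control embryo 3. Of the 8, 2 had an unadjusted p under 0.05 (25.0%), against 13.9% of all genes in the higher direction. Lamp1 was 159.9, 178, 211 and 158 RPKM in TKO-labelled embryos 1 to 4, against 179, 116, 105 and 126 RPKM in Control embryos 1 to 4. The 4 TKO-labelled embryos were above Control embryos 2 to 4, and Control embryo 1 lay inside the TKO-labelled range. The log2 difference of Lamp1 was 0.44, with an interval of 0.08 to 0.81, a limma adjusted p of 0.227 and an exact two-sided permutation p of 0.114. Its relative Lamp2, which also serves chaperone-mediated autophagy, differed by 0.15 (-0.23 to 0.54).

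Laptm4b, a membrane-spanning protein of late endosomes and lysosomes, was 28.5, 44.2, 38.5 and 37.9 RPKM in TKO-labelled embryos, against 26.2, 32.6, 21.2 and 28.3 RPKM in Control embryos. TKO-labelled embryos 2 to 4 were above every Control embryo, and TKO-labelled embryo 1 was below Control embryo 2. The difference was 0.45 (0.09 to 0.80), with a limma adjusted p of 0.215 and an exact two-sided permutation p of 0.0571. Laptm4a, its relative, differed by 0.30 (-0.02 to 0.61). Npc1, the membrane protein that exports cholesterol from lysosomes, differed by 0.37 (-0.03 to 0.77), Scarb2 by 0.32 (-0.12 to 0.77) and Cd63 by 0.31 (-0.22 to 0.85). Mcoln1, a calcium-releasing channel, differed by 0.06, and by -0.01 and -0.03 with median-ratio scaling and quantile normalization.

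The proton pump subunits differed by 0.13 for Atp6v0d1 of the membrane sector (-0.25 to 0.51, and -0.01 with quantile normalization) and by 0.17 for Atp6v1h of the outer sector (-0.13 to 0.47). Grn, the precursor of the granulins, differed by -0.28 (-0.68 to 0.11). Tfeb, the regulator itself, was 5.13, 1.99, 4.54 and 4.42 RPKM in TKO-labelled embryos, against 6.51, 3.33, 3.77 and 4.48 RPKM in Control embryos. The groups overlapped, and its difference of -0.16 (-0.69 to 0.38) had a limma adjusted p of 0.764. The 8 genes with GTCACGTG in the window had a median difference of 0.20, and the 18 tested genes with a window but without it had a median of 0.18.

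**Figure D3:**
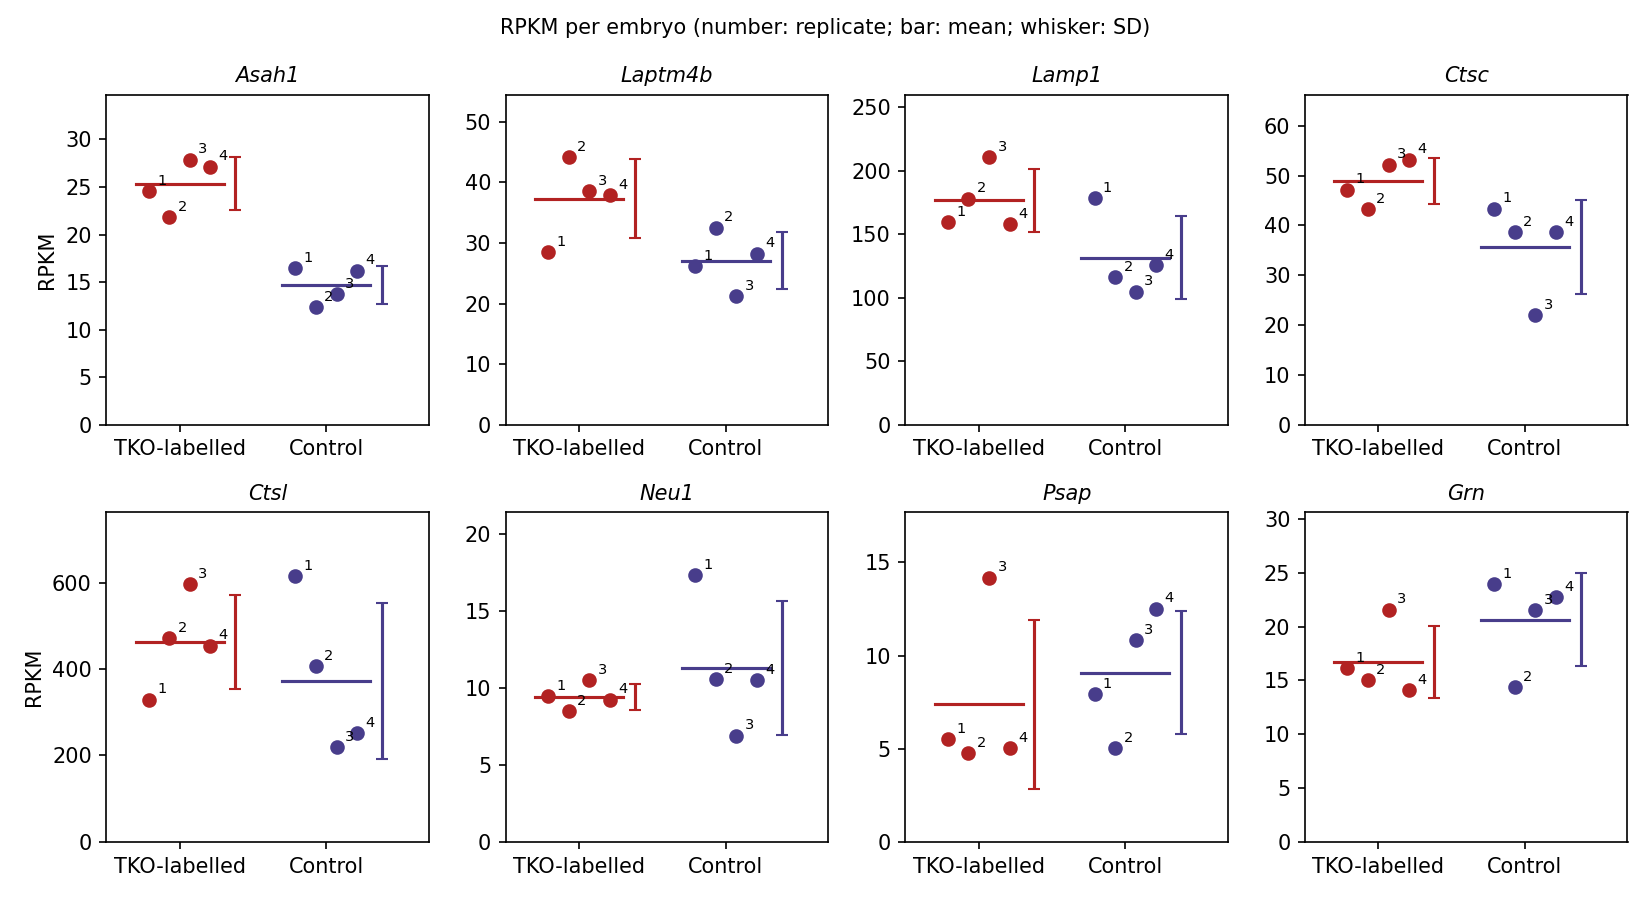
RPKM per embryo of 8 lysosomal genes, TKO-labelled embryos left of Control embryos, with the mean as a bar and the SD as a whisker (n = 4 each). The groups are separate for Asah1, while Control embryo 1 is the highest Control embryo for Lamp1, Ctsl, Ctsc and Neu1, and TKO-labelled embryo 3 stands above the other TKO-labelled embryos for Psap and Grn.

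Many lysosomal genes shared an order of embryos that ran across both groups. Control embryo 1 was the highest of all 8 for 15 of the 32 genes, against 10.2% of all genes tested, and TKO-labelled embryo 3 for 9, against 10.2%. Control embryo 3 was the lowest of all 8 for 20 of the 32, against 22.0% of all genes. The median coefficient of variation of the lysosomal genes was 14.7% among TKO-labelled embryos and 26.0% among Control embryos, while over all genes it was 16.5% and 14.8%. Without Control embryo 1 it was 18.0% among the Control embryos, against 13.3% over all genes.

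The summed RPKM of the 33 genes was 1614, 1858, 2322 and 1792.5 in TKO-labelled embryos 1 to 4, against 2347, 1545, 1136 and 1353 in Control embryos 1 to 4. TKO-labelled embryo 3 and Control embryo 1 were the highest of their groups. The sum of the 14 visceral endoderm markers was 1138, 1222, 1428 and 1119.8 RPKM in TKO-labelled embryos, against 1717, 999.5, 618 and 763 RPKM in Control embryos. Within Control the 2 sums had the same order, with embryo 1 at the top, then 2, then 4, then 3. The 8 extraembryonic ectoderm markers shared this order, with sums of 208, 164, 134 and 148 RPKM in Control embryos 1 to 4. Among TKO-labelled embryos the orders differed: the lysosomal sum was lowest in embryo 1 and the visceral endoderm sum in embryo 4. In a whole embryo, more cells of a type and more RNA per cell cannot be told apart. Of the 14 visceral endoderm markers, 2 were higher (14.3%) and 0 lower at an unadjusted p under 0.05, against 13.9% and 3.6% of all genes. The 13 parietal endoderm markers summed to 264, 717, 939 and 608 RPKM in TKO-labelled embryos, against 261, 159, 215 and 316 RPKM in Control embryos. Of the 12 tested, 9 were higher at an unadjusted p under 0.05 (75.0%), against 13.9% of all genes.

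**Figure D4:**
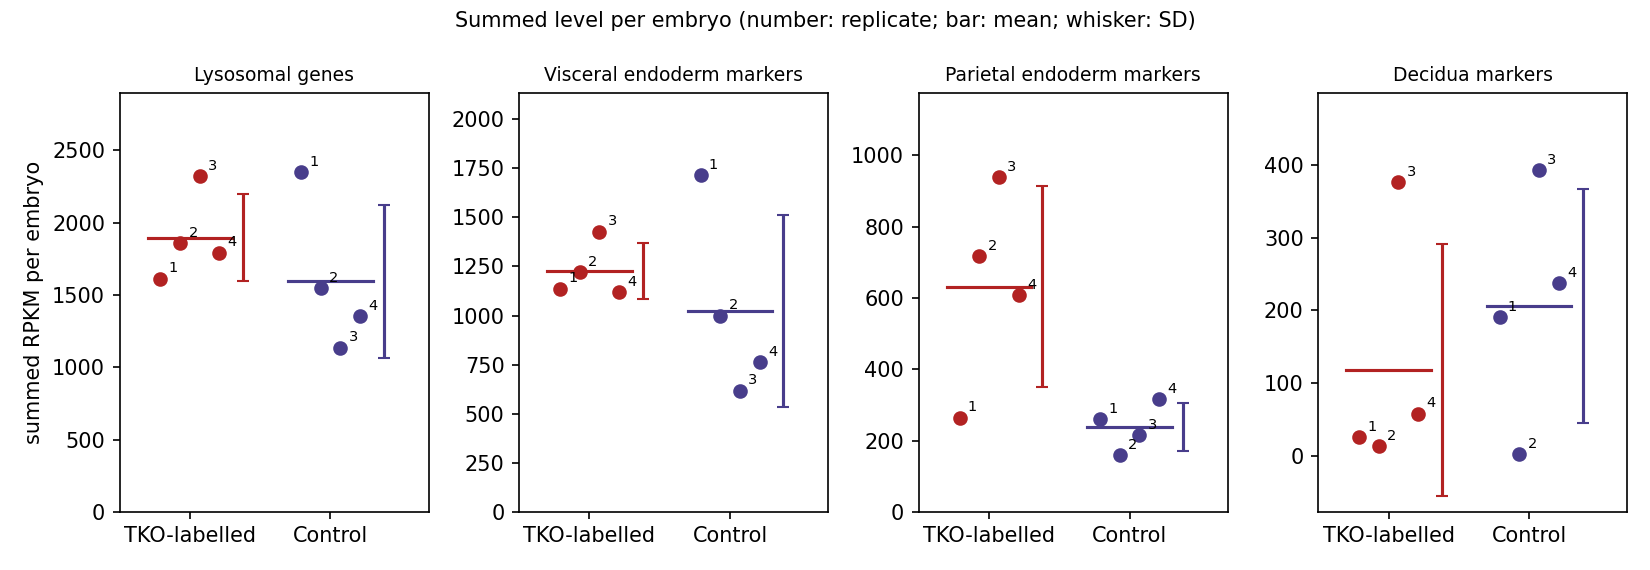
Summed RPKM per embryo of the 33 lysosomal genes and of the markers of visceral endoderm, parietal endoderm and decidua, TKO-labelled embryos left of Control embryos, with the mean as a bar and the SD as a whisker (n = 4 each). Control embryo 1 is the highest Control embryo for the lysosomal genes (2347 RPKM) and for visceral endoderm markers (1717 RPKM).

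Within Control, embryo 1 was the highest for 24 of the 32 genes (33.5% of all genes) and embryo 3 the lowest for 20 (34.7%). Leaving out either embryo thus shifts the differences by construction. Leaving out Control embryo 1 moved the count of lysosomal genes that were higher at an unadjusted p under 0.05 to 13 of 32 (40.6%), against 14.5% of all genes, and their median difference to 0.31, against 0.10 over all genes. Leaving out Control embryo 3 moved the count to 2 of 32 (6.25%), against 10.1% of all genes, and the median difference to 0.12, against 0.08 over all genes. The 13 genes without Control embryo 1 were Asah1, Atp6v1h, Cd63, Ctsa, Ctsc, Ctsd, Ctsh, Ctsl, Ctsz, Lamp1, Laptm4b, Lgmn and Npc1. Lamp1 then differed by 0.60 with a limma adjusted p of 0.126, and Ctsz by 0.57 with 0.134. None of the 32 passed the adjusted threshold in either fit, and limma called 0 genes in all without Control embryo 1, where 1517 were higher at an unadjusted p under 0.05.

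With the mean log2 level of the visceral endoderm markers as a covariate, 2 of 32 genes were higher at an unadjusted p under 0.05, against 11.3% of all genes. These were Asah1 at 0.70 (limma adjusted p of 0.178) and Lamp1 at 0.26 (0.321). One gene, Neu1, was lower at -0.43 (0.224), against 3.89% of all genes. The median of the 32 differences was then 0.01, against 0.08 over all genes, and those of Ctsl, Ctsz and Cd63 were 0.03, 0.00 and 0.01. With the parietal endoderm markers as a covariate, only Asah1 of the 32 was higher at an unadjusted p under 0.05, against 11.3% of all genes. Its difference was 0.63 (limma adjusted p of 0.193). The median of the 32 differences was then 0.07, against 0.08 over all genes. This covariate was itself mostly higher in TKO-labelled embryos. Its mean log2 levels were 3.13, 4.91, 5.30 and 4.51 there, against 3.20, 2.70, 2.94 and 3.72 in Control embryos. The fit thus separates group and covariate only in part. The standard error rose from 0.126 to 0.180 for Asah1 and from 0.167 to 0.231 for Lamp1. The lower count cannot be told apart from this loss of precision. TKO-labelled embryo 1 had a parietal endoderm sum of 264 RPKM, within the Control range. The 5 genes with an unadjusted p under 0.05 in the main fit were mixed in this embryo. Asah1 (24.6 RPKM), Ctsc (47.2 RPKM) and Ctsd (35.9 RPKM) were above every Control embryo there. Laptm4b (28.5 RPKM) and Lamp1 (159.9 RPKM) lay within the Control range. What parietal endoderm content contributes to these levels was not tested beyond the covariate.

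**Figure D5:**
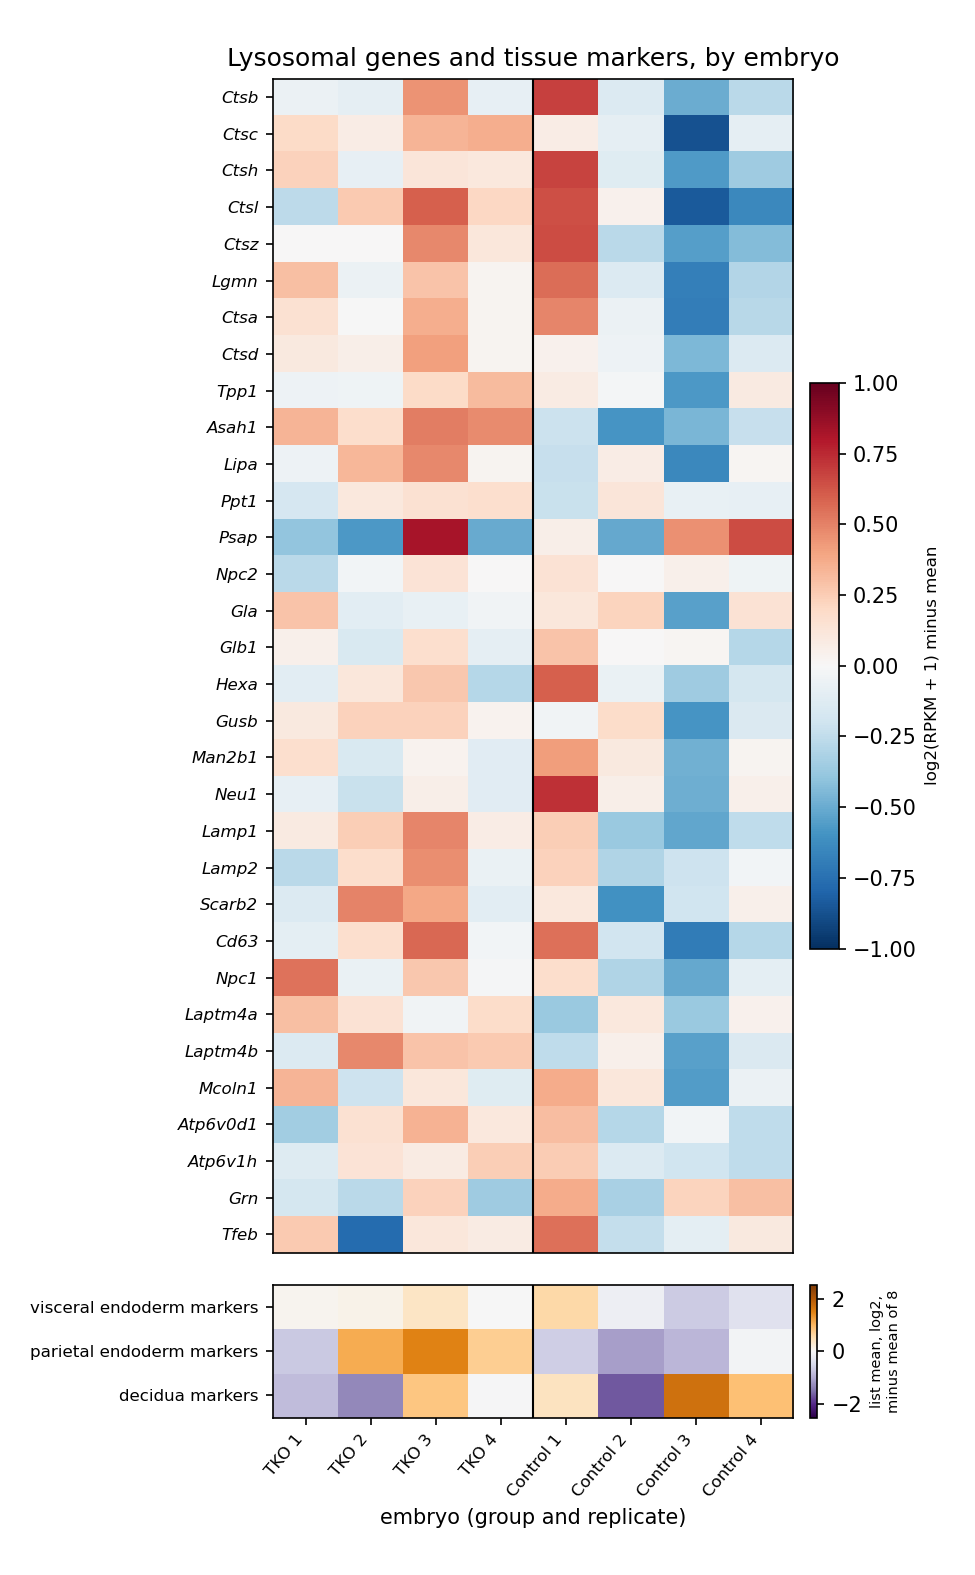
Log2(RPKM + 1) of each tested lysosomal gene minus its mean over the 8 embryos, TKO-labelled embryos in the left 4 columns and Control embryos in the right 4, above the mean log2 level of 3 marker lists, also minus its mean. Ctsb, Ctsl, Ctsz, Lgmn, Ctsa and Hexa are high in Control embryo 1 and TKO-labelled embryo 3 and low in Control embryo 3. Other hydrolases depart from this, with Asah1, Lipa and Ppt1 below their means in Control embryo 1, and Psap is high where decidua markers are high.

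Psap and Grn did not share that order and were singled out after their values were seen. Psap was 5.53, 4.77, 14.2 and 5.04 RPKM in TKO-labelled embryos, against 7.95, 5.01, 10.8 and 12.5 RPKM in Control embryos. Grn was 16.1, 15.0, 21.6 and 14.1 RPKM in TKO-labelled embryos, against 24.0, 14.4, 21.6 and 22.7 RPKM in Control embryos. Both were high in TKO-labelled embryo 3 and in Control embryos 1, 3 and 4, and low in the other 4. The 7 decidua markers summed to 26.2, 13.3, 376 and 58.2 RPKM in TKO-labelled embryos, against 191, 2.67, 392 and 238 RPKM in Control embryos, so the same 4 embryos were the highest. The 5 neutrophil markers summed to 2.09, 0.18, 20.8 and 3.33 RPKM in TKO-labelled embryos, against 13.55, 0.16, 28.9 and 13.4 RPKM in Control embryos. These 4 embryos were again the highest, so the match was not particular to decidua markers. None of the 6 decidua markers tested was lower at an unadjusted p under 0.05, against 3.6% of all genes, or higher, against 13.9%. All 6 differences were negative.

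Psap differed by -0.33 (-1.06 to 0.40), with a limma adjusted p of 0.629, and Grn had 0.427. With TKO-labelled embryo 3 left out, Psap differed by -0.66 and Grn by -0.41, with limma adjusted p-values of 0.240 and 0.279. They were the 2 of 32 genes that were lower at an unadjusted p under 0.05 in that fit, against 3.88% of all genes. Without Control embryo 2, 1 of 32 was lower, against 3.84% of all genes. Over all fits with 1 embryo left out, Grn differed by -0.44 to -0.21. With decidua markers as a covariate, an alternative chosen after seeing the data, the differences were -0.06 for Psap and -0.16 for Grn. The same covariate gave Asah1 a difference of 0.81 with a limma adjusted p of 0.0885. The part of maternal tissue in these levels was not tested beyond this fit.

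Beyond the 33 genes, 8 lists of other genes of the pathway held 124 tested genes. At an unadjusted p under 0.05, 16 were higher in TKO-labelled embryos (12.9%), close to the 13.9% of all genes, and 1 was lower, against 3.6% of all genes. The counts for each list are read against the same shares. None passed the adjusted threshold. The 29 other hydrolases had 3 higher genes (10.3%) and a median difference of 0.09. The smallest p-values there belonged to Aga, which frees asparagine from sugars, at 7.41 ± 2.38 RPKM in TKO-labelled embryos and 4.43 ± 0.527 RPKM in Control embryos (limma adjusted p of 0.209), and to the cathepsin Ctsf, at 3.67 ± 0.734 and 2.52 ± 0.389 RPKM (0.224; SD, n = 4 each).

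Other membrane and transport proteins had 3 higher genes of 16 (18.8%). Glmp, a lysosomal membrane glycoprotein, averaged 29.1 ± 3.28 RPKM in TKO-labelled embryos and 19.4 ± 5.35 RPKM in Control embryos (limma adjusted p of 0.185), and Cln3, a membrane protein lost in a juvenile storage disease, averaged 3.85 ± 1.21 and 2.46 ± 0.358 RPKM (0.241; SD, n = 4 each). The other higher gene was Tmem55b, a lysosomal membrane protein, with a difference of 0.31 (limma adjusted p of 0.246). The 16 other proton pump genes had 1 higher gene (6.25%). This was Atp6v1e1 at 124 ± 12.9 RPKM in TKO-labelled embryos and 101 ± 15.3 RPKM in Control embryos (SD, n = 4 each; limma adjusted p of 0.268). The next was Atp6v1g1, with a difference of -0.17 (0.456).

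Genes for sorting and fusion had 5 higher genes of 24 (20.8%) and 1 lower, against 13.9% and 3.6% of all genes. Rab7, the small GTPase of late endosomes, was 35.2, 7.56, 14.1 and 37.6 RPKM in TKO-labelled embryos, against 7.85, 2.36, 6.16 and 6.02 RPKM in Control embryos. TKO-labelled embryos 1, 3 and 4 were above every Control embryo, and the difference was 1.73 with a limma adjusted p of 0.160. Vps41, of the HOPS tethering complex, was 15.9 to 22.3 RPKM in TKO-labelled embryos and 12.4 to 14.7 RPKM in Control embryos, with no overlap and a limma adjusted p of 0.192. The other 3 higher genes, named after their values were seen, were Vps26a, Vps29 and Vps35, whose products form the core of the retromer that returns cargo from endosomes. Vps26b, a relative of Vps26a in the same list, was not among the higher genes. Vps26a differed by 0.42, Vps29 by 0.35 and Vps35 by 0.37, where limma gave an adjusted p of 0.230, 0.264 and 0.284. The lower gene was Gga1, an adaptor that sorts cargo at the Golgi, with a difference of -0.39 (limma adjusted p of 0.233) and no overlap.

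The list of Tfeb relatives and nutrient sensing had 2 higher genes of 21 (9.52%). Rragc, one of the Rag GTPases that bring the kinase complex mTORC1 to the lysosome, was 13.5, 17.2, 20.5 and 22.3 RPKM in TKO-labelled embryos, against 12.6, 11.5, 12.6 and 11.7 RPKM in Control embryos. The groups did not overlap, and the difference of 0.54 had a limma adjusted p of 0.160. Flcn, folliculin, an activator of the Rag GTPases, averaged 10.1 ± 1.10 RPKM in TKO-labelled embryos and 7.17 ± 1.74 RPKM in Control embryos (SD, n = 4 each; limma adjusted p of 0.200). Of the relatives of Tfeb, Tfe3 averaged 18.9 ± 5.44 RPKM in TKO-labelled embryos and 18.1 ± 2.75 RPKM in Control embryos, Tfec averaged 6.55 ± 2.74 and 4.05 ± 1.10 RPKM (SD, n = 4 each), and Mitf stayed below the filter. These 3 were named for their kinship with Tfeb.

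Autophagy genes had 2 higher of 14 (14.3%), Atg7 at 1.60 ± 0.539 RPKM in TKO-labelled embryos and 0.989 ± 0.199 RPKM in Control embryos, and Atg5 at 24.3 ± 2.87 and 20.3 ± 1.41 RPKM (SD, n = 4 each), with limma adjusted p-values of 0.264 and 0.286. Both act in the conjugation steps that build the autophagosome membrane. The cathepsin inhibitors tested were Cstb and Cst3, of the cystatin family. Cstb averaged 241.7 ± 58.7 RPKM in TKO-labelled embryos and 349.8 ± 134 RPKM in Control embryos, and Cst3 averaged 235.6 ± 44.7 and 186.5 ± 51.3 RPKM (SD, n = 4 each; limma adjusted p of 0.369 and 0.380).

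Of the placental cathepsins, Cts7 and Cts8 passed the filter. Cts7 was 1.08, 0.0470, 18.8 and 2.11 RPKM in TKO-labelled embryos, against 2.84, 0.134, 12.2 and 7.59 RPKM in Control embryos, and Cts8 differed by -0.41. For Cts7 the 4 highest embryos were the 4 with the highest decidua marker sums. The 7 markers of ectoplacental cone and giant cells summed to 51.7, 24.3, 178 and 73.05 RPKM in TKO-labelled embryos. Their sums in Control embryos were 85.2, 48.4, 68.5 and 72.0 RPKM. Like Cts7, they were highest in TKO-labelled embryo 3 and lowest in TKO-labelled embryo 2. Unlike Cts7, they were higher in TKO-labelled embryo 4 than in Control embryo 3. What each tissue contributes to Cts7 was not tested.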

How the data were processed

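Each library came from 1 lysed embryo, through SMARTer cDNA synthesis and Nextera XT library preparation, per the labels' protocols. The authors deposited RPKM per gene symbol for each embryo. The submitters' processing notes name HTSeq, without a version, and mm9. The aligner, like the annotation, strand use and read denominator, is not given in the sources used here, so reads shared by related or antisense genes may be split in unknown ways. Depth was estimated from low RPKM values that fit 1 to 3 whole reads within 2%. No count test was run, since whole reads were not recovered.

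Groups were taken from the sample labels, and all 8 columns matched a sample. Differences in log2(RPKM + 1) were tested with limma (version 3.58.1, R 4.3.3) under a variance trend. Genes entered if 4 or more embryos reached 1 RPKM, and two-sided p-values were adjusted by Benjamini-Hochberg over 10451 genes. Single values were also tested by exact permutation over all 70 assignments. The method was checked on simulated data. The genes and lists were chosen with earlier results of these data known. All 33 genes are described by role, with values per embryo for those with an unadjusted p under 0.05, no overlap, or the highest or lowest level. Each other list gives its 2 genes with the smallest p. The values of 1 gene counted in these lists are not reported here. Promoters come from RefSeq on GRCm38.p6, and no coordinates were converted. The alternatives were other pseudocounts, filters, scalings and variance priors, a replicate block, marker covariates and leaving out each embryo.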

Additional observations from a re-analysis of the deposited data

Results flagged for a closer look

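In 5 of 66 groups of 4 embryos, 1 embryo lay farther from the other 3 than Dixon's 95% criterion allows, and chance gives about 1 in 20 such groups. In TKO-labelled embryo 3, Ctsb was 62.8 RPKM with 42.8 to 43.8 RPKM in the other 3, Ctsd was 45.0 RPKM with 34.2 to 35.9 RPKM, and Psap was 14.2 RPKM with 4.77 to 5.53 RPKM. In TKO-labelled embryo 1, Gla was 6.91 RPKM with 5.04 to 5.33 RPKM in the other 3. In Control embryo 1, Ctsz was 230.5 RPKM with 99.3 to 121 RPKM in the other 3.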

How the results depend on the processing

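Over 19 alternatives, 19 lysosomal genes kept the sign of their difference, 13 turned at least once, and none passed the adjusted threshold in any. The count of all genes called, 1, was 0 with no filter, the replicate block, the visceral endoderm covariate and the decidua covariate, 2 with a mean RPKM of at least 5 and with quantile normalization, 3 with the parietal endoderm covariate, and 0 to 40 when 1 embryo was left out, with 40 without TKO-labelled embryo 1 and 0 without any one Control embryo or TKO-labelled embryo 4. At an unadjusted p under 0.05, the 5 higher lysosomal genes of 32 (13.9% of all genes, given in brackets hereafter) were 3 with median-ratio scaling (8.05%) and the decidua covariate (13.0%), 2 with quantile normalization (7.46%) and the visceral endoderm covariate (11.3%), 1 with the parietal endoderm covariate (11.3%), 4 with log2(RPKM + 0.1) (13.8%) and without the variance trend (13.5%), and 5 with the replicate block (13.6%). With no filter, where 20714 genes entered, 5 of 33 were higher (8.28%), and the medians were 0.19 against 0.0048 over all genes. A mean RPKM of at least 5 gave 5 of 27 (16.5%), and log2(RPKM + 0.5) gave 5 of 32 (13.8%). The higher lysosomal genes were 2 to 13 when 1 embryo was left out. They were 2 without Control embryo 3 (10.1%), 3 without TKO-labelled embryo 3 (13.0%) and 13 without Control embryo 1 (14.5%). They were 6 without Control embryo 2 (10.3%) and 6 without Control embryo 4 (10.8%). The median of the lysosomal genes, 0.20, ranged over 0.01 to 0.31. The 5 with the replicate block held Npc1 and not Ctsd. Same-numbered embryos had correlations of deviations of -0.005, 0.402, 0.265 and -0.021, against -0.462 to 0.196 for embryos of unlike number. These values do not settle whether the numbers mark pairs. The labels name no pairs, so the numbers were not taken as pairs in the main fit. Signs turned with median-ratio scaling for Gla (-0.041) and Mcoln1 (-0.012). They turned with quantile normalization for Ctsb (-0.011), Gla (-0.052), Mcoln1 (-0.032) and Atp6v0d1 (-0.010). They turned with the visceral endoderm covariate for Ctsb (-0.19), Ctsh (-0.084), Gla (-0.064) and Mcoln1 (-0.12). They turned with the parietal endoderm covariate for Ctsb (-0.073), Glb1 (0.052), Man2b1 (0.041), Lamp2 (-0.25), Scarb2 (-0.11), Cd63 (-0.0026) and Atp6v0d1 (-0.20), and with the decidua covariate, chosen after seeing the data, for Gla (-0.061), Glb1 (0.0033), Mcoln1 (-0.0013), Cts7 (0.39) and Cts8 (0.035). Leaving out 1 embryo turned Ctsb (-0.037 to 0.35), Gla (-0.15 to 0.11), Glb1 (-0.11 to 0.082), Hexa (-0.12 to 0.20), Man2b1 (-0.20 to 0.10), Mcoln1 (-0.11 to 0.20), Neu1 (-0.37 to 0.034), Tfeb (-0.27 to 0.076) and Cts7 (-1.32 to 0.098). The cause was not tested. Read totals are estimates, so no counting interval is given.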
